A study of Mus musculus with 20 samples.

Results

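The matrix metalloproteinases Mmp2, Mmp3, Mmp9, Mmp10, Mmp13, Mmp14 and Mmp19 and their inhibitors Timp1, Timp2 and Timp3 were followed across 10 groups of mouse breast cancer cells. These 10 genes were found by symbol in both deposited tables, out of 19311 genes given as RPKM (reads per kilobase of gene, scaled to the library total) and 24454 genes given as CPM (the same scaling without gene length). All 10 were expressed highly enough to be tested in the CPM libraries and 9 in the RPKM libraries, where Mmp2 reached the minimum of 1 RPKM in 1 library. Mmp9 passed that minimum only through both Py2T LT libraries, so it had to differ from the clones.

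Py2T is a line from a mammary tumour of the MMTV-PyMT mouse, in which a viral oncogene is driven in the mammary gland. RNA sequencing covered 20 libraries, 2 per group, from 2 independent experiments per the extract protocol, and p-values measure the spread between those libraries. For the Py2T LT group, Py2T cells had received TGF-beta 1 at 2 ng/ml over more than 10 days. M1, M2 and M3 are mesenchymal clones, each group being 1 clone, and the labels do not state whether TGF-beta was present. M3 cells carrying the control shRNA shControl, shTet2 or shMbd3 made up the other 6 groups, without CI994 or with 2 µM CI994 for 72 hours. CI994 is an inhibitor of class I histone deacetylases. Tet2 is an enzyme that oxidises methylated cytosine in DNA, and Mbd3 belongs to NuRD, a chromatin remodelling and deacetylase complex. The series title puts the question as the role of these proteins in epithelial and mesenchymal plasticity and in invasion.

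Matrix metalloproteinases are zinc endopeptidases that are made as inactive zymogens and cut extracellular matrix and cell surface proteins once their prodomain is removed. TIMPs bind the active site of the mature enzymes, and Timp2 also takes part in the activation of pro-Mmp2 by the membrane-anchored Mmp14. In mammary tumours these enzymes are known for remodelling basement membrane and stroma, and several of their genes respond to AP-1 and Ets transcription factors. Among the genes followed here, Mmp13 is a collagenase, Mmp3 and Mmp10 are stromelysins, Mmp2 and Mmp9 are gelatinases, and Mmp19 is a secreted enzyme outside those classes. Timp1 inhibits many secreted enzymes, and Timp3 stays bound to the matrix and also inhibits ADAM proteases.

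Mmp13, Mmp3 and Mmp10 lie close together on chromosome 9 in GRCm38: Mmp13 at 7272514 to 7283333, Mmp3 at 7445822 to 7455975 and Mmp10 at 7502342 to 7510242. They belong to a run of 10 metalloproteinase genes over 427 kb, which ends at 7699585. Their RefSeq promoters (GRCm38.p6) are shown with those of Mmp14 and Timp2 because the first 3 are neighbours on the chromosome and the last 2 encode the membrane-anchored enzyme and the inhibitor that act together on pro-Mmp2. Each sequence is the 110 bases before the annotated start, 5′ to 3′ on the strand of the gene. Capitals mark the AP-1 motif TGANTCA and the TATA motif TATAAA in the first 3, and the GC box GGGCGG in the last 2. Mmp13 is at chr9:7272404-7272513, Mmp3 at chr9:7445712-7445821, Mmp10 at chr9:7502232-7502341, Mmp14 at chr14:54431488-54431597, all on the plus strand, and Timp2 at chr11:118355412-118355521 on the minus strand.
Mmp13: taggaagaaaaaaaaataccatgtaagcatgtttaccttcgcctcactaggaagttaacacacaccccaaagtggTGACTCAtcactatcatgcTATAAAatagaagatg
Mmp3: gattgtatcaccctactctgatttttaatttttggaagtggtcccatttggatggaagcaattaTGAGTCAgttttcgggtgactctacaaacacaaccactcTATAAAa
Mmp10: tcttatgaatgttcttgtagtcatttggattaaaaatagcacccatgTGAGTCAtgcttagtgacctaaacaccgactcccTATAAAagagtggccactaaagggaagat
Mmp14: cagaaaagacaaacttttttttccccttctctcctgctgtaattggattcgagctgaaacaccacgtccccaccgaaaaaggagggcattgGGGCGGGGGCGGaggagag
Timp2: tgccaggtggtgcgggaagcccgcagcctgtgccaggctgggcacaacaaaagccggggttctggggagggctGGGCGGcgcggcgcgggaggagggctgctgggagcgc

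The AP-1 motif began 35 bases before the start in Mmp13, 46 in Mmp3 and 63 in Mmp10, and the TATA motif 16, 7 and 29 bases before it. Both strands were searched over 250 bases before the start, and TGANTCA reads the same on both. It was found in 6.749% of 32851 promoters, TATAAA in 12.37%, GGGCGG in 32.74%, and TGANTCA together with TATAAA in 1.215%. The 250 bases of Mmp14, Timp1, Timp2 and Timp3 held neither TGANTCA nor TATAAA. Promoters of 7 of the 10 genes were matched, without Mmp2, Mmp9 and Mmp19. A match describes these letters and is not a measured binding site.

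Of the other genes, Mmp2 lies on chromosome 8 at 92827290 to 92853421, Mmp9 on chromosome 2 at 164940326 to 164955850 and Mmp14 on chromosome 14 at 54431598 to 54442456. Mmp19 lies on chromosome 10 at 128790910 to 128800827, Timp1 on chromosome X at 20870166 to 20874737, Timp2 on chromosome 11 at 118301061 to 118355411 and Timp3 on chromosome 10 at 86300412 to 86349505. Timp1, Timp3 and Mmp19 overlap the antisense genes Syn1, Syn3 and Tmem198b, and Timp2 overlaps Cep295nl on its own strand. Whether counting used the strand is not given in the sources used here, so reads of these overlaps could be shared. Mmp3 and Mmp10 transcripts share 140 windows of 50 bases, 7.991% of the windows of Mmp3 and 8.368% of those of Mmp10, and no other pair of the 10 genes shares any.

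The 12 CPM libraries held 16086082 to 24977595 reads, so 3 reads correspond to 0.120 to 0.186 CPM, counting error only. The depth of the 8 RPKM libraries is unknown. In each group 5 of 7 mammary epithelial markers reached 1 RPKM or CPM, and the basal keratin Krt5 and the luminal factor Elf5 were at or near 0. Tet2 was 8.41 and 7.97 CPM in shTet2 against 15.1 and 13.8 in shControl, and Mbd3 was 22.1 and 27.7 CPM in shMbd3. In limma neither gene passed against shControl with shMbd3 without CI994, or with either knockdown within CI994. Mbd3 was 66.5 CPM in shControl replicate 2 but 5.40 CPM in the library labelled shControl replicate 1, below both shMbd3 libraries. That Mbd3 value goes against the label. Mmp9 and Mmp3, at 2.38 and 118 CPM there, were nearer to replicate 2 (2.35 and 79.2) than to shMbd3 (28.6 and 23.0, 12.7 and 14.8), while Timp1 and Mmp10 overlapped between shControl and shMbd3. The reason was not tested. Between the 2 untreated shControl libraries the median log2 difference ran from 0.661 in the tenth of genes with lowest GC content to -1.09 in the highest. Their epithelial marker sums were 959 and 2466 CPM. The calls against untreated shControl named below, other than those of cell type markers, are therefore followed by values without the library labelled shControl replicate 1. For the epithelial and mesenchymal markers only the list medians are given without it. Leaving it out, 0 of the 44 limma calls of these genes in the CPM libraries changed sign. More of all genes passed in that fit in most comparisons, also in those without shControl. A call kept or gained there is therefore no result about that gene.

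Against Py2T LT, the clones had little Mmp9, less Timp1, Timp3 and Mmp13, and more Timp2 and Mmp10. Mmp9 measured 49.25 and 33.5 RPKM in Py2T LT, 0.838 and 0.741 in M1, 0.296 and 0.324 in M2, and 0.381 and 0.473 in M3. All 6 clone libraries lay below both Py2T LT libraries, and the mean was 81.3-fold lower, 0.509 ± 0.228 RPKM (SD, n = 6) against 41.4 ± 11.1 (SD, n = 2). Because Mmp9 entered the test only through Py2T LT, this difference is given without a p-value.

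Leaving Mmp9 aside, 7 of the other 8 genes tested passed for the mean of the clones in limma (Benjamini-Hochberg adjusted p under 0.05), 3 higher and 4 lower, where 65.1% of all 11717 tested genes passed, 32.1% higher and 33% lower. In the single clones 7 of these 8 passed in M1, 6 in M2 and 6 in M3, where 61%, 57.6% and 59.6% of all genes passed. With most tested genes passing, these counts are no result about the 10 genes as a group. All 3 clones were compared with the same Py2T LT libraries.

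**Figure D1:**
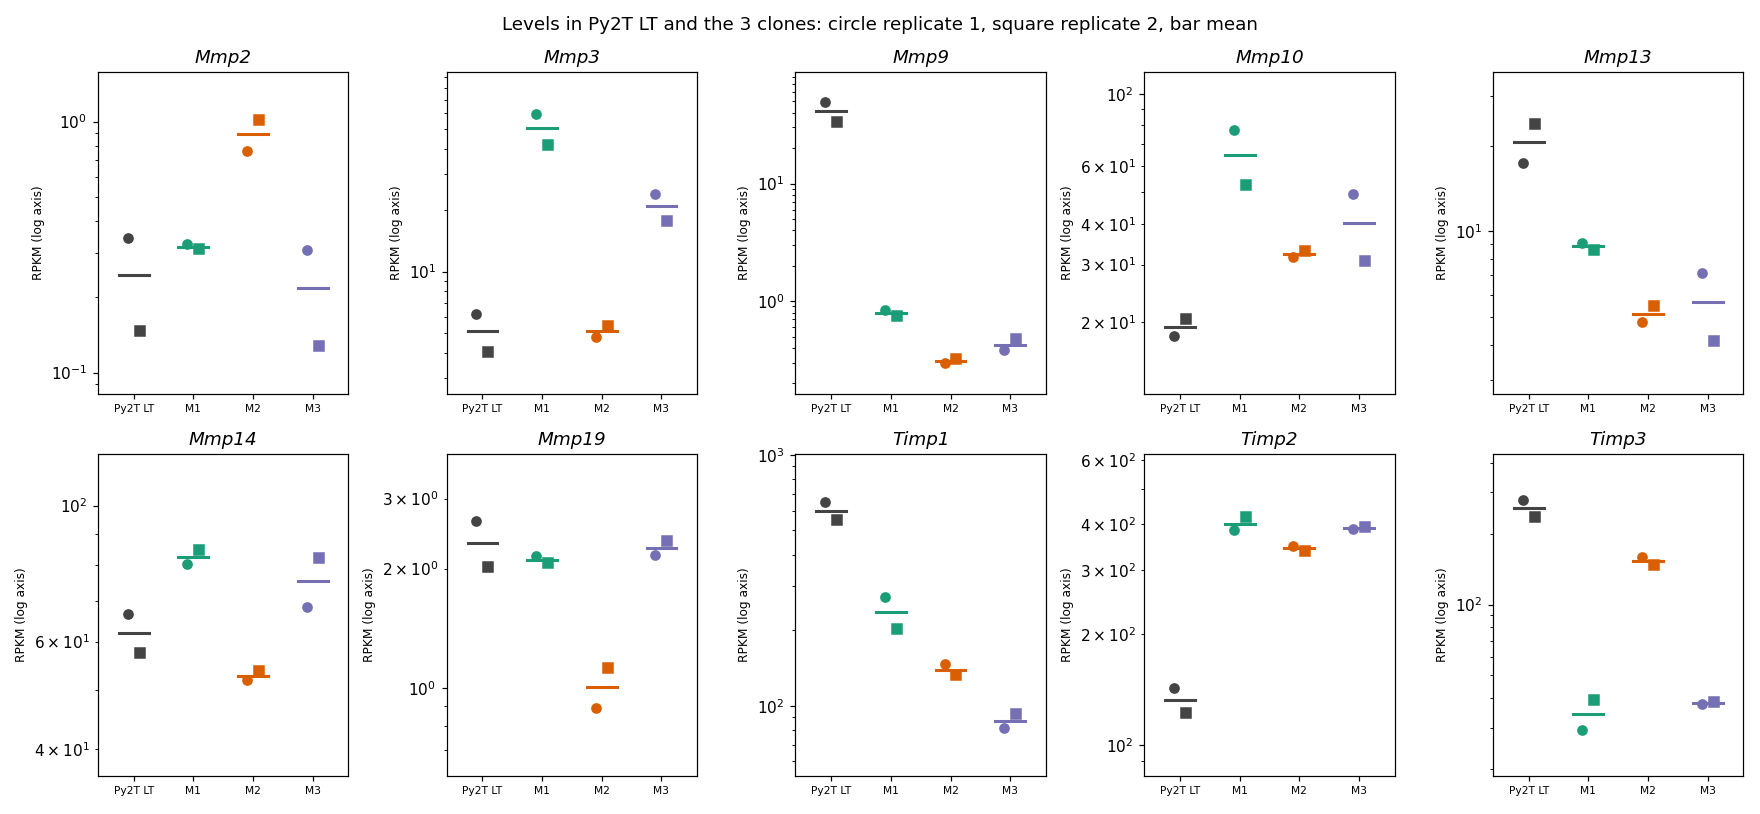
RPKM of each gene on a log axis in Py2T LT and the clones M1, M2 and M3, with 1 panel per gene, a circle for replicate 1, a square for replicate 2 and a bar for the mean. Mmp9 lies at 33.5 RPKM or above in Py2T LT and at 0.838 or below in the clones, and Mmp3 is high in M1 and M3 only.

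Among the inhibitors, Timp1 and Timp3 were lower and Timp2 was higher in each clone. Timp1 was 649 and 549 RPKM in Py2T LT, 271 and 202 in M1, 146 and 132 in M2, and 81.6 and 92.3 in M3. No 2 groups overlapped, so the order was Py2T LT, M1, M2, M3, and each step between the clones also passed: M2 against M1 gave a log2 difference of -0.73 ± 0.14 (SE; limma, adjusted p = 0.00929) and M3 against M2 gave -0.67 ± 0.14 (adjusted p = 0.0132). The first call was lost without M2 replicate 2 (-0.65), with no filter on low values (adjusted p = 0.0728) and with only the groups compared (adjusted p = 0.0511). The M3 against M2 call for Timp1 was lost without any of the 4 libraries compared (-0.74 to -0.58) and with no filter (adjusted p = 0.0863). Timp2 went the other way, from 143 and 122 RPKM in Py2T LT to 385 and 418 in M1, 349 and 339 in M2, and 387 and 394 in M3. Its mean was 2.86-fold higher over the clones, a log2 difference of 1.48 ± 0.09 (SE; limma, adjusted p = 1.21e-06). This SE measures the spread between libraries within groups and not the spread among clones. The 3 clones did not pass against each other for Timp2, with log2 differences of -0.20 ± 0.11 (M2 against M1), -0.01 ± 0.11 (M3 against M1) and 0.18 ± 0.11 (M3 against M2). In RPKM, which allows comparison between genes, Timp1 was the highest of the 10 genes in Py2T LT and Timp2 the highest in each clone.

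Timp3 separated M2 from the other clones. It was 278.5 and 236 RPKM in Py2T LT, 160.0 and 147 in M2, but 29.3 and 39.2 in M1 and 38.0 and 38.5 in M3. The M1 and M3 ranges overlapped, and both groups lay below M2, which lay below Py2T LT. The log2 difference from Py2T LT was -2.95 ± 0.15 in M1, -2.75 ± 0.15 in M3 and -0.76 ± 0.15 in M2 (SE; limma, adjusted p = 8.87e-07, 1.21e-06 and 0.00275). M2 exceeded M1 by 2.19 ± 0.15 on the log2 scale (adjusted p = 6.53e-05). These differences measure RNA, and in bulk RNA fewer cells with a transcript and less transcript per cell cannot be told apart.

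The stromelysins rose, Mmp3 in M1 and M3 and Mmp10 in each clone. Mmp3 was 6.21 and 4.04 RPKM in Py2T LT, 59.8 and 41.8 in M1, 4.80 and 5.42 in M2, and 24.1 and 17.8 in M3. M2 lay within the Py2T LT values, M3 above both and M1 above M3. Mmp3 was 9.92-fold higher in M1, a log2 difference of 3.15 ± 0.23 (SE; limma, adjusted p = 1.08e-05), and 4.09-fold higher in M3, at 1.93 ± 0.23 (adjusted p = 0.000181), against 0.00 ± 0.23 in M2 (adjusted p = 0.994). Mmp10 was 18.2 and 20.5 RPKM in Py2T LT, 77.5 and 52.4 in M1, 31.6 and 33.1 in M2, and 49.5 and 30.8 in M3. Its rises were 1.65 ± 0.24, 0.71 ± 0.24 and 0.98 ± 0.24 on the log2 scale (limma, adjusted p = 0.000734, 0.0379 and 0.00972). The M2 rise was lost when any of the 4 libraries compared was left out (0.62 to 0.79), and the M3 rise without Py2T LT replicate 1 (0.89, adjusted p = 0.0564). Part of the Mmp3 and Mmp10 reads could be exchanged between these similar transcripts.

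The collagenase Mmp13 fell in each clone, from 17.4 and 23.8 RPKM in Py2T LT to 9.09 and 8.62 in M1, 4.80 and 5.46 in M2, and 7.17 and 4.12 in M3. Its log2 differences were -1.20 ± 0.24, -1.91 ± 0.24 and -1.83 ± 0.24 (SE; limma, adjusted p = 0.00292, 0.000246 and 0.000303). The clones did not pass against each other for Mmp13, with M2 minus M1 at -0.71 ± 0.24 (adjusted p = 0.0672), M3 minus M1 at -0.63 ± 0.24 and M3 minus M2 at 0.08 ± 0.24. M1 and M2 did not overlap, and that Mmp13 difference passed with the GC trend removed (-0.94, adjusted p = 0.0146), with only the groups compared (-0.71, adjusted p = 0.0327) and without M3 replicate 1 or 2 (adjusted p = 0.0286 and 0.0278).

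Mmp14 passed in M1 and Mmp19 in M2 alone among the single clones compared with Py2T LT. Mmp14 was 66.5 and 57.4 RPKM in Py2T LT, 80.3 and 84.6 in M1, 52.0 and 53.6 in M2, and 68.3 and 82.1 in M3. Its difference passed in M1, at 0.37 ± 0.12 (SE; limma, adjusted p = 0.0236), but not without Py2T LT replicate 2 (0.26), without M1 replicate 2 (0.31) or after removal of the GC trend (0.17, adjusted p = 0.139). Mmp19 was 2.63 and 2.02 RPKM in Py2T LT, 2.15 and 2.06 in M1, 0.888 and 1.12 in M2, and 2.17 and 2.35 in M3. It fell in M2, by 0.92 ± 0.15 on the log2 scale (limma, adjusted p = 0.00102). The value for the mean of the clones, -0.37 (adjusted p = 0.0291), did not pass without Py2T LT replicate 1 (-0.22), M2 replicate 1 (-0.33) or M3 replicate 1 (-0.33). The antisense gene Tmem198b, which overlaps Mmp19, was 17.5 and 18.1 RPKM in Py2T LT and between 11.6 and 13.6 in the clones. Mmp2 was low throughout, from 0.128 to 0.344 RPKM in Py2T LT, M1 and M3 and 0.762 and 1.02 in M2, and was not tested.

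Between clones, 7 of the 9 genes passed in M2 against M1, where 22.9% of all genes passed, 5 in M3 against M2 (20.4%) and 2 in M3 against M1 (4.79%). M1 and M3 differed in Mmp3, by -1.22 ± 0.23 for M3 minus M1 (SE; limma, adjusted p = 0.0274), and in Timp1, by -1.40 ± 0.14 (adjusted p = 0.00139). The Mmp3 call was lost without M1 replicate 1 (-0.97), M2 replicate 1 or 2 (-1.20 each), M3 replicate 1 (-1.44) or M3 replicate 2 (-0.99). M2 stood lower than M1 in Mmp3 (-3.15), Mmp10 (-0.95), Mmp19 (-0.78), Timp1 (-0.73), Mmp9 (-0.66, with all levels under 1 RPKM) and Mmp14 (-0.61), and higher in Timp3 (2.19). Mmp9 was tested only because of Py2T LT, and its limma call (adjusted p = 0.0356) was lost with a pseudocount of 1 (adjusted p = 0.0906) and with the GC trend removed (adjusted p = 0.0648). The Mmp9, Mmp10 and Mmp14 calls were lost with no filter (adjusted p = 0.121, 0.137 and 0.0507) and in some fits with 1 library left out. M3 stood higher than M2 in Mmp3 (1.92), Mmp19 (0.88) and Mmp14 (0.50) and lower in Timp3 (-1.99) and Timp1 (-0.67). Without M2 replicate 1, 3 genes passed in M2 against M1 and 2 in M3 against M2. For both comparisons 3 passed when genes with low values were kept in the fit.

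Over all genes 65.1% passed between the mean of the clones and Py2T LT, which is the background for the list counts that follow. Of 18 further metalloproteinases and direct inhibitors, 3 were tested in the RPKM libraries and all 3 were higher in the clones. Mmp28, an epithelial metalloproteinase also known as epilysin, rose by 1.85 ± 0.18 (log2, SE) and Reck, a membrane-anchored inhibitor of several metalloproteinases, by 1.54 ± 0.15. Of 14 tested ADAM and ADAMTS proteases 6 were higher and 6 lower, with the proteoglycan-cutting enzyme Adamts9 at 3.50 ± 0.12 and Adamts6 at -3.54 ± 0.21. Reck and Adamts9 reached the minimum of 1 RPKM in only 6 of the 8 libraries and were higher in each clone. The filter thus favoured these 2 rises, which are given as a description. Among 14 tested activators and partners of metalloproteinases 2, Tfpi2 and Plat, entered only through Py2T LT. Of the other 12 there were 4 higher and 5 lower, with the proprotein convertase Pcsk6 at 1.13 ± 0.13 and Serpine2 at 0.86 ± 0.13. These 2 means were not shared alike by the clones. Pcsk6 was at 1.70 in M1 and 1.42 in M3, with M2 minus M1 at -1.44. Serpine2 reached 1 RPKM in 2 libraries and was at 1.76 in M2, with M2 minus M1 at 1.33 and M3 minus M2 at -1.37. The filter thus favoured its rise in M2. Of 15 AP-1 and Ets factors 4 were higher and 5 lower, with Atf3 at -2.40 ± 0.28, Junb at -1.68 ± 0.13 and Etv1 at 1.18 ± 0.13. The medians of these 4 lists were 1.54, 0.13, -0.36 and -0.13, against -0.01 over all genes. Fibroblast marker sums were 19.8 and 20.7 RPKM in Py2T LT and 7.07 to 20.8 in the clones, with Lum at 0 in each group. Of 4 tested fibroblast markers Col1a1 and Col1a2 entered only through Py2T LT, and 1 of the other 2 fell. Of 5 tested mammary epithelial markers 2 were higher in the clones (Epcam 1.13 ± 0.16, Krt18 0.39 ± 0.14), and of 5 mesenchymal markers 2 were higher (Cdh2 4.27 ± 0.11, Prrx1 2.04 ± 0.14) and 3 lower, among them Vim (-1.71 ± 0.09). Haematopoietic sums were 1.24 to 3.18 RPKM and endothelial sums 0.0527 to 1.44. The part of these cell types in the results was not tested.

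In M3 cells with shMbd3, Mmp9 was higher and Mmp3, Mmp19 and Mmp13 were lower than with shControl, without and with CI994. Mmp9 was 2.38 and 2.35 CPM in shControl and 28.6 and 23.0 in shMbd3. With CI994 it was 2.08 and 2.21 CPM in shControl and 31.5 and 33.8 in shMbd3. The shMbd3 libraries lay above every library of the other 4 groups. Mmp9 was 10.9-fold higher without CI994, a log2 difference of 3.14 ± 0.16 (SE; limma, adjusted p = 5.46e-06), or 3.20 without the library labelled shControl replicate 1. With CI994 it was 15.2-fold higher, at 3.61 ± 0.16 (adjusted p = 2.96e-06).

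Mmp3 was 118 and 79.2 CPM in shControl but 12.7 and 14.8 in shMbd3, and with CI994 267 and 178 against 23.6 and 23.0. The groups did not overlap, and the log2 differences were -2.83 ± 0.25 without CI994 (SE; limma, adjusted p = 8.16e-05) and -3.23 ± 0.25 with it (adjusted p = 3.88e-05). Mmp19 was 2.56 and 2.78 CPM in shControl and 0.501 and 0.491 in shMbd3, which is 12 and 11 reads. Its log2 difference was -1.71 ± 0.16 (adjusted p = 0.000111), and with CI994, from 6.21 and 7.34 to 1.93 and 2.11 CPM, -1.55 ± 0.16 (adjusted p = 0.000185). Mmp13 was 40.3 and 34.9 CPM in shControl and 12.5 and 15.4 in shMbd3, a difference of -1.46 ± 0.22 (adjusted p = 0.00137). With CI994 it was 623 and 428 CPM against 128 and 110, a difference of -2.16 ± 0.22 (adjusted p = 0.000174).

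Among the inhibitors, Timp2 fell in both settings, Timp3 without CI994 and Timp1 with it. Timp2 was 900.3 and 1048 CPM in shControl and 677 and 675 in shMbd3, a log2 difference of -0.58 ± 0.09 (SE; limma, adjusted p = 0.00219), and -0.57 ± 0.09 with CI994 (adjusted p = 0.00265). Timp3 fell from 184 and 164 to 105 and 109 CPM without CI994, at -0.75 ± 0.15 (adjusted p = 0.00686). With CI994 it was 136 and 156 CPM in shControl against 153 and 130 in shMbd3, and the groups overlapped (-0.09 ± 0.15, adjusted p = 0.757). Timp1 was 44.0 and 56.0 CPM in shControl and 44.6 and 40.0 in shMbd3, overlapping (-0.29 ± 0.16, adjusted p = 0.178; -0.40 without the library labelled shControl replicate 1). With the GC trend removed Timp1 passed at -0.47 (adjusted p = 0.0148). With CI994 it fell from 72.5 and 56.7 to 40.6 and 35.8 CPM, at -0.78 ± 0.16 (adjusted p = 0.00798), a call lost without shControl with CI994 replicate 1 (-0.59) or shMbd3 with CI994 replicate 2 (-0.67).

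Mmp14 was 71.0 and 113 CPM in shControl and 151 and 170 in shMbd3, a log2 difference of 0.77 ± 0.19 (SE; limma, adjusted p = 0.0159). It was 0.50 without the library labelled shControl replicate 1, and 0.20 (adjusted p = 0.221) after removal of the GC trend. It did not pass without shMbd3 replicate 1 (0.84) or replicate 2 (0.70). With CI994, Mmp14 was 95.3 and 115 CPM in shControl and 141 and 178 in shMbd3, at 0.56 ± 0.19 (adjusted p = 0.0745). That difference passed with the GC trend removed (0.38, adjusted p = 0.0351), with only the groups compared (adjusted p = 0.00963) and in DESeq2 (0.58, adjusted p = 0.038). Mmp10 was 104 and 84.0 CPM in shControl and 96.7 and 95.9 in shMbd3, inside the shControl range, and Mmp2 stayed between 0.275 and 0.939 CPM in all 12 libraries.

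In all, 7 of the 10 genes passed with shMbd3 without CI994, 2 higher and 5 lower, where 32.1% of 12808 genes passed, 15.6% higher and 16.6% lower. With CI994 6 passed, where 18.9% of all genes passed. The median log2 difference of the 10 genes was -0.43 in each, against 0.01 and 0.00 over all genes. Without the library labelled shControl replicate 1, the same direction was seen for all 7, with Mmp3 at -2.48, Mmp13 at -1.30, Mmp19 at -1.71, Timp2 at -0.63 and Timp3 at -0.61. The Timp3 call was lost without shMbd3 replicate 1 (-0.74, adjusted p = 0.0505). Fitted on the 4 libraries alone, 3 genes passed, which were Mmp3, Mmp9 and Mmp19. Of 5 tested mammary epithelial markers 3 rose with shMbd3, and of 5 mesenchymal markers 4 fell and 1 rose. The medians of these 2 lists were 2.54 and -1.48, and 2.24 and -1.34 without the library labelled shControl replicate 1. Fibroblast marker sums were 28.5 and 36.7 CPM in shMbd3 against 46.5 and 85.5 in shControl, but 2 of 4 tested markers were higher and 2 lower. Lum was at 0 in both groups and Dcn in shMbd3. The part of these markers in the results was not tested.

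**Figure D2:**
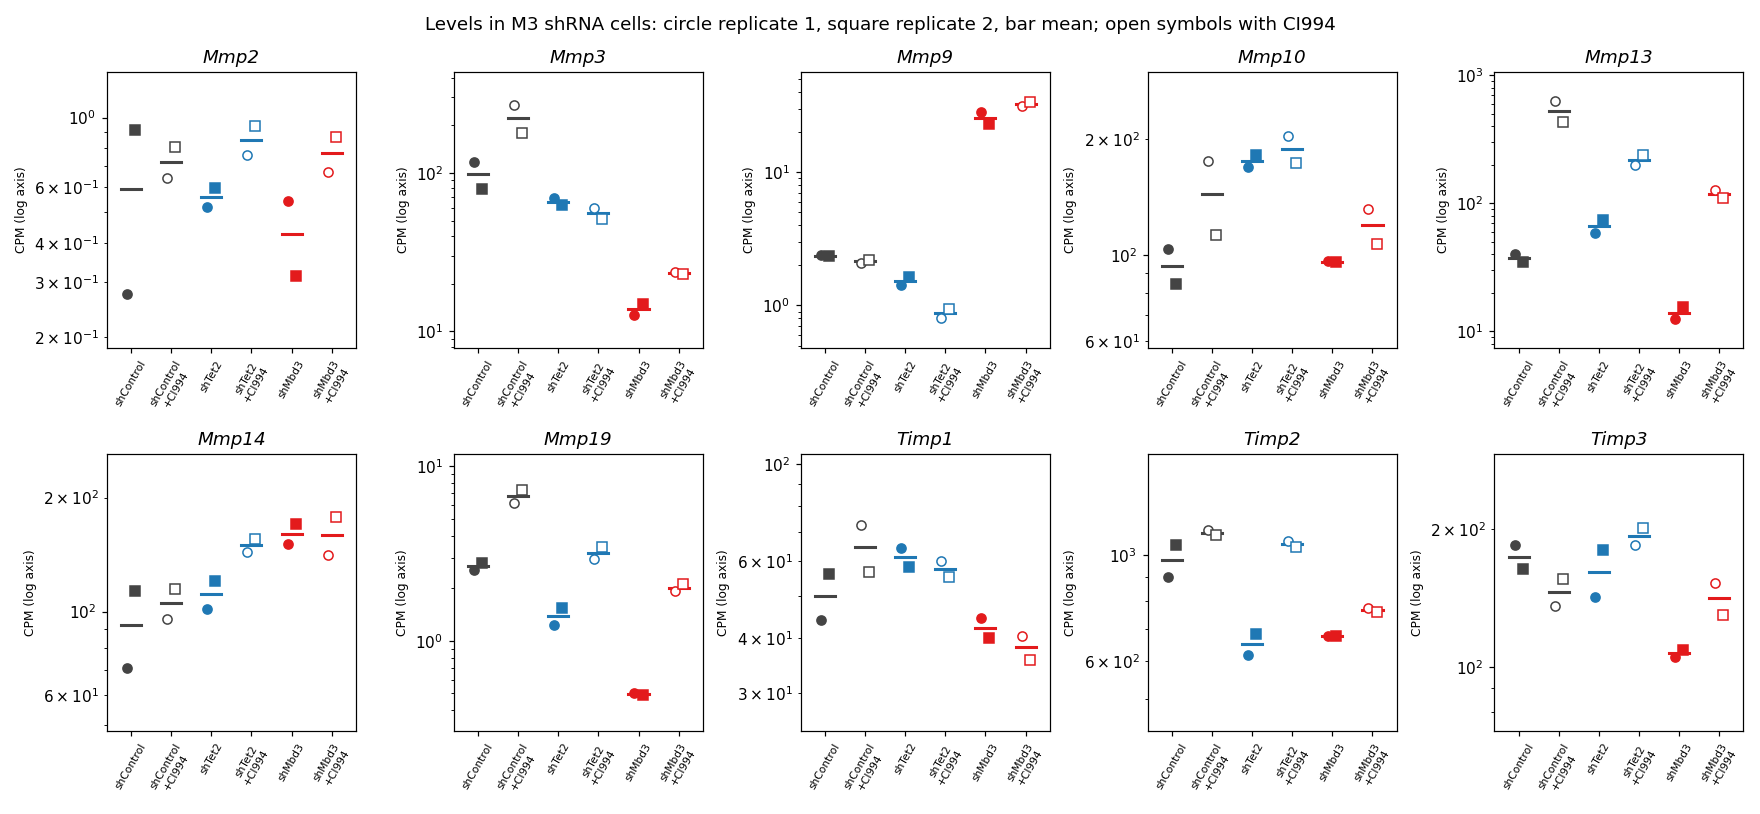
CPM of each gene on a log axis in M3 cells with shControl, shTet2 or shMbd3, filled symbols without and open symbols with CI994, a circle for replicate 1, a square for replicate 2 and a bar for the mean. Mmp9 lies between 23.0 and 33.8 CPM in the 4 shMbd3 libraries and between 0.803 and 2.38 CPM in the other 8.

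With shTet2 and no CI994, Mmp10 and Mmp13 were higher and Mmp19 and Timp2 lower than with shControl. Mmp10 was 169 and 181 CPM in shTet2 against 104 and 84.0 in shControl, a log2 difference of 0.93 ± 0.22 (SE; limma, adjusted p = 0.016). Mmp13 was 58.2 and 74.0 CPM against 40.3 and 34.9, at 0.83 ± 0.22 (adjusted p = 0.0231). Mmp19 was 1.23 and 1.54 CPM against 2.56 and 2.78, at -0.73 ± 0.16 (adjusted p = 0.0103). Timp2 was 618 and 682 CPM against 900.3 and 1048, at -0.55 ± 0.09 (adjusted p = 0.0031). The 2 groups did not overlap for any of these 4 genes. Mmp3 was 69.3 and 62.6 CPM and Mmp9 1.42 and 1.64, both below shControl without passing (-0.52 ± 0.25 and -0.48 ± 0.16, adjusted p = 0.153 and 0.0635). These were -0.17 and -0.42 without the library labelled shControl replicate 1. Without shControl replicate 2 both passed, Mmp3 at -0.87 (adjusted p = 0.00295) and Mmp9 at -0.53 (adjusted p = 0.0285). Mmp9 also passed with the GC trend removed (-0.72, adjusted p = 0.0223) and by library size only (adjusted p = 0.0497).

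These 4 of 10 genes compare with 23.2% of all genes, 10.5% higher and 12.7% lower. The median log2 difference of the 10 genes was -0.02, against 0.02 over all genes. Without the library labelled shControl replicate 1 the differences were 1.15 for Mmp10, 0.99 for Mmp13, -0.73 for Mmp19 and -0.60 for Timp2, all passing. Mmp10 was lost without either shTet2 library (0.98 and 0.89), Mmp13 without shTet2 replicate 2 (0.66), Mmp19 without shTet2 replicate 1 (-0.62), and fitted on the 4 libraries alone limma called 0 of the 10. More genes passed without shControl replicate 2, which leaves the library labelled shControl replicate 1 as the only untreated control. That number is no result about the 10 genes. With shTet2 3 of 5 tested mammary epithelial markers rose, among them Cdh1 (3.32 ± 0.16) and Epcam (2.26 ± 0.11). Of 5 mesenchymal markers 3 fell, among them Prrx1 (-3.28 ± 0.18) and Vim (-2.12 ± 0.10), and Cdh2 rose (0.44 ± 0.09). The epithelial and mesenchymal medians were 1.13 and -1.57, and 0.56 and -1.43 without the library labelled shControl replicate 1. Of 4 fibroblast markers 1 rose and 2 fell, with sums of 26.0 and 27.7 CPM against 46.5 and 85.5 in shControl and Lum at 0 in both. The part of these markers in the results was not tested.

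Within CI994, Mmp3, Mmp13, Mmp19 and Mmp9 were lower with shTet2 than with shControl, and 6 genes did not pass (15.8% of all genes passed, 6.55% higher and 9.24% lower). Mmp3 was 59.8 and 51.4 CPM against 267 and 178, a log2 difference of -1.98 ± 0.25 (SE; limma, adjusted p = 0.000666). Mmp13 was 199 and 240 CPM against 623 and 428, at -1.25 ± 0.22 (adjusted p = 0.00413), where without CI994 it had been higher. Mmp19 was 2.96 and 3.44 CPM against 6.21 and 7.34 (-0.98 ± 0.16, adjusted p = 0.00284), and Mmp9 was 0.803 and 0.939 CPM, 19 and 21 reads, against 2.08 and 2.21 (-0.96 ± 0.16, adjusted p = 0.0038). Timp2, at 1070 and 1037 CPM against 1126 and 1098, differed by -0.09 ± 0.09 (adjusted p = 0.599). Mmp14 (0.50 ± 0.19, adjusted p = 0.115) and Timp3 (0.39 ± 0.15, adjusted p = 0.126) were higher in shTet2 without overlap. Both passed with only the groups compared (adjusted p = 0.00339 and 0.00653). Mmp10, with overlapping groups (0.40 ± 0.22), passed with the GC trend removed (0.53, adjusted p = 0.0343). In these libraries untreated shControl enters only through the shared estimate of the spread.

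**Figure D3:**
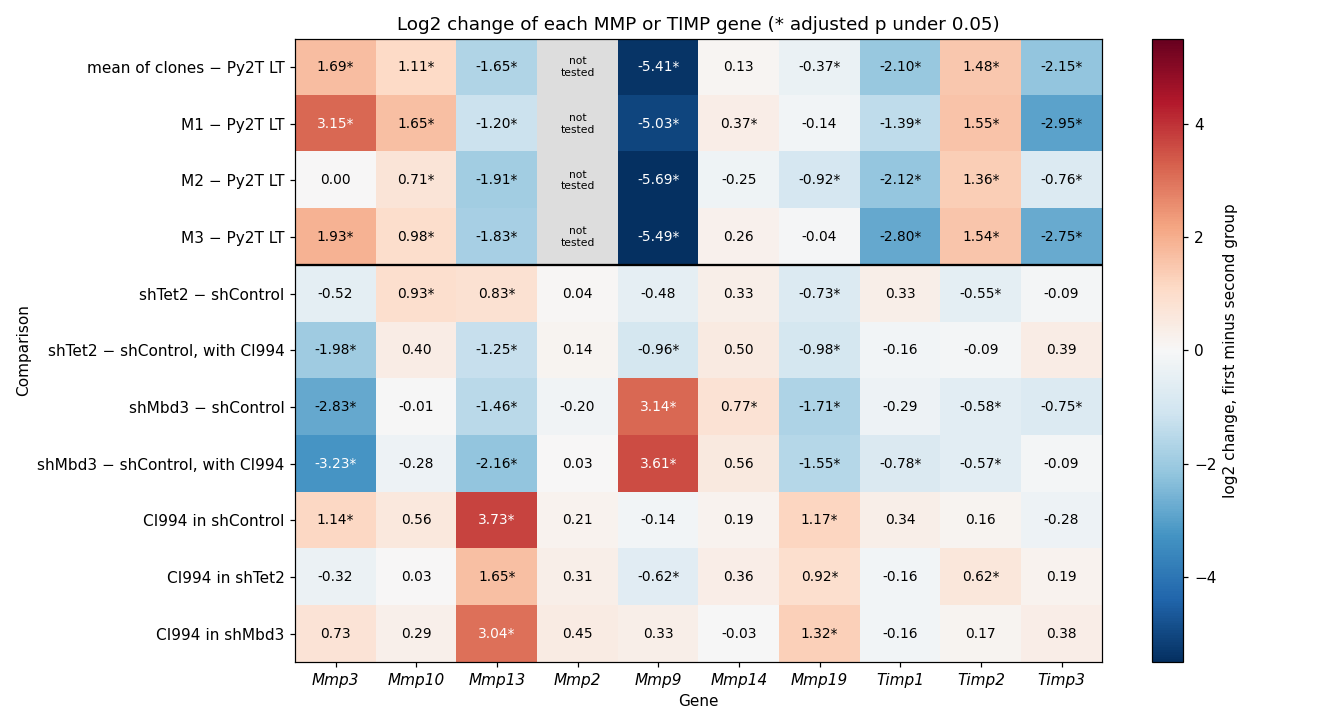
Log2 change of each gene (columns) in 11 comparisons (rows), red for higher and blue for lower in the first group, with * for an adjusted p under 0.05 and grey for Mmp2, not tested in the RPKM libraries. The line separates the RPKM libraries from the CPM libraries; Mmp9 runs from -5.69 in M2 to 3.61 in shMbd3 with CI994, and its marks in the 4 upper rows follow from how it passed the filter.

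CI994 raised Mmp13 and Mmp19 in all 3 shRNA lines. Mmp13 went from 40.3 and 34.9 to 623 and 428 CPM in shControl, from 58.2 and 74.0 to 199 and 240 in shTet2, and from 12.5 and 15.4 to 128 and 110 in shMbd3. These were 14.0-fold, 3.32-fold and 8.53-fold rises, with log2 differences of 3.73 ± 0.22, 1.65 ± 0.22 and 3.04 ± 0.22 (SE; limma, adjusted p = 3.67e-05, 0.00111 and 0.000165). Without CI994 the order of Mmp13 was shTet2, shControl, shMbd3, and with CI994 it was shControl, shTet2, shMbd3, with no overlap between groups in either.

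Mmp19 went from 2.56 and 2.78 to 6.21 and 7.34 CPM in shControl, from 1.23 and 1.54 to 2.96 and 3.44 in shTet2, and from 0.501 and 0.491 to 1.93 and 2.11 in shMbd3. Its log2 differences were 1.17 ± 0.16, 0.92 ± 0.16 and 1.32 ± 0.16 (SE; limma, adjusted p = 0.00141, 0.00426 and 0.00126). The order shControl, shTet2, shMbd3 was the same without and with CI994. The antisense gene Tmem198b, which overlaps Mmp19, was also higher, at 29.9 and 34.8 CPM with CI994 against 16.3 and 22.2 in shControl, and its part in the Mmp19 values was not tested.

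Mmp3 rose with CI994 in shControl, from 118 and 79.2 to 267 and 178 CPM, a log2 difference of 1.14 ± 0.25 (SE; limma, adjusted p = 0.0106). Without the library labelled shControl replicate 1 it was 1.48, and without shControl with CI994 replicate 1 it was 0.83 (adjusted p = 0.0814). In shMbd3 the 4 values, 12.7 and 14.8 without and 23.6 and 23.0 CPM with CI994, did not overlap, and the difference of 0.73 ± 0.25 did not pass (adjusted p = 0.0858). It passed without either untreated shControl library, though neither enters this difference. In shTet2 it was 69.3 and 62.6 against 59.8 and 51.4 CPM, at -0.32 ± 0.25 (adjusted p = 0.348).

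Mmp9 fell with CI994 in shTet2, from 1.42 and 1.64 to 0.803 and 0.939 CPM, at -0.62 ± 0.16 (SE; limma, adjusted p = 0.0251), a call lost when any of those 4 libraries was left out (-0.70 to -0.54). Timp2 rose with CI994 in shTet2, from 618 and 682 to 1070 and 1037 CPM, at 0.62 ± 0.09 (adjusted p = 0.00213). In shControl and shMbd3 its differences were 0.16 ± 0.09 and 0.17 ± 0.09 and did not pass. Timp1, Timp3 and Mmp10 did not pass with CI994 in limma in any of the 3 lines with all libraries, with log2 differences between -0.28 and 0.56. Mmp10 in shControl passed at 0.77 without the library labelled shControl replicate 1 (adjusted p = 0.0217) and at 0.91 without shControl with CI994 replicate 2 (adjusted p = 0.029), and also with the GC trend removed (0.84, adjusted p = 0.00336) and in DESeq2 (0.58, adjusted p = 0.0427). Timp3 in shMbd3, at 0.38 ± 0.15 (adjusted p = 0.141), passed without either untreated shControl library (adjusted p = 0.0228 and 0.0229) and with only the groups compared (0.37, adjusted p = 0.0217). Without shControl replicate 2, Timp1 in shControl passed at 0.45 and Timp3 at -0.43. Mmp14 in shControl, at 0.19 ± 0.19, turned to -0.09 without the library labelled shControl replicate 1 and to -0.51 (adjusted p = 0.0106) after removal of the GC trend.

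In all, 3 of 10 genes passed with CI994 in shControl, 4 in shTet2 and 2 in shMbd3, where 33.5%, 24.2% and 12.6% of all genes passed. In shControl these were Mmp13, Mmp19 and Mmp3, at 3.90, 1.17 and 1.48 without the library labelled shControl replicate 1. Fitted on the 4 shControl libraries alone, limma called 0. More genes passed without shControl replicate 2, but that is no result about the 10 genes, since 1 untreated control library is then left. Haematopoietic marker sums were 1.71 to 3.83 CPM in the 6 libraries without CI994 and 10.3 to 20.7 CPM in the 6 with it, mostly from Cd68, with Adgre1, Itgam and Mpo at 0 in every CI994 group. Of these 8 markers 3 were tested, and 2, 2 and 3 of them rose in shControl, shTet2 and shMbd3. Fibroblast marker sums were 26.0 to 85.5 CPM without and 46.8 to 97.0 with CI994, and 3, 3 and 2 of 4 tested markers rose. Of 5 tested mammary epithelial markers 5, 2 and 1 rose in shControl, shTet2 and shMbd3, and of 5 mesenchymal markers 1, 2 and 1 rose and 1 fell in each line. In shControl the epithelial and mesenchymal medians were 1.14 and -0.09, and 0.51 and 0.04 without the library labelled shControl replicate 1. Epithelial sums were 2973 to 4209 CPM with CI994 and mesenchymal sums 4147 to 8903. Endothelial sums stayed at or below 1.12 CPM. The part of these markers' cell types in the results was not tested.

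**Figure D4:**
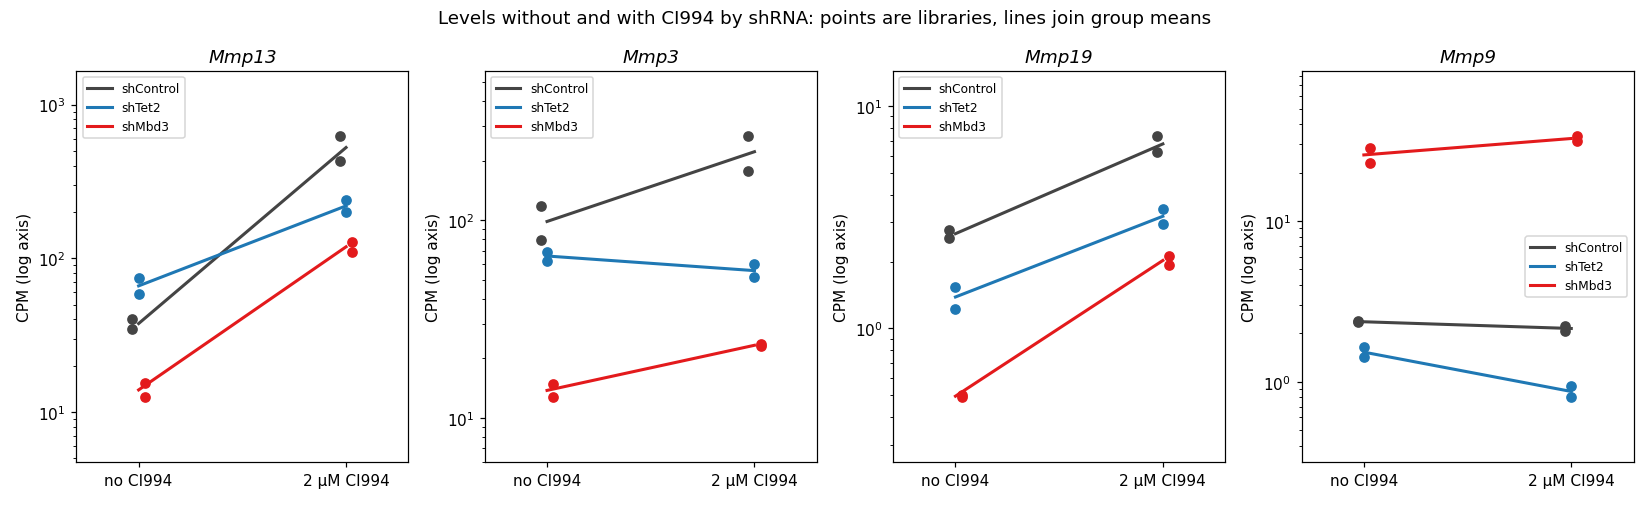
CPM on a log axis of Mmp13, Mmp3, Mmp19 and Mmp9 without CI994 and with 2 µM CI994, points for libraries and lines joining the means of 2 libraries, by shRNA. The Mmp13 lines of shControl and shTet2 cross, while the Mmp9 line of shMbd3 stays above 22.9 CPM.

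Whether the shTet2 or shMbd3 difference itself changed with CI994 was tested as an interaction, the knockdown difference with CI994 minus that without it. For shTet2 only Mmp13 passed among the 10 genes, where 0.687% of all genes passed. Its interaction was -2.08 ± 0.31 (SE; limma, adjusted p = 0.0227), from 0.83 without CI994 to -1.25 with it, and -2.24 without the library labelled shControl replicate 1. The call was lost without either shTet2 library (-2.25 and -1.91), either shMbd3 library (-2.08 each), either library of shTet2 with CI994 (-1.96 and -2.21), either library of shMbd3 with CI994 (-2.08 each, adjusted p = 0.05 and 0.0503) or shControl with CI994 replicate 1 (-1.80). It was also lost with no filter on low values (adjusted p = 0.102) and with only the 4 groups compared (adjusted p = 0.127). For Mmp3 the interaction was -1.46 ± 0.35 and did not pass (adjusted p = 0.109). It passed without the library labelled shControl replicate 1 (-1.80, adjusted p = 0.00558) or shControl replicate 2 (-1.11, adjusted p = 0.00684), after GC correction (-1.50, adjusted p = 0.00976) and in DESeq2 (-1.42, adjusted p = 0.0127).

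For shMbd3, 0 of the 10 genes passed the interaction in limma, 0 in edgeR and 0 in DESeq2, where 0.0781% of all genes passed in limma. At an unadjusted limma p under 0.05 there were 2, Mmp13 at -0.69 ± 0.31 and Timp3 at 0.66 ± 0.22 (SE; limma, adjusted p = 0.394 and 0.281). Without shControl replicate 2, Timp3 passed at 0.81 and Timp1 at -0.61.

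The knockdowns were also compared with each other, a comparison that leaves untreated shControl out of the difference. Without CI994 7 genes passed, where 19.1% of all genes passed, and with CI994 6, where 21.8% passed. For shTet2 minus shMbd3 without CI994, Mmp9 was at -3.61 ± 0.16 (SE; limma, adjusted p = 4.8e-06), Mmp3 at 2.31 ± 0.25 (adjusted p = 0.000332), Mmp13 at 2.29 ± 0.22 (adjusted p = 0.000187) and Mmp19 at 0.97 ± 0.16 (adjusted p = 0.00302). Mmp10 (0.95), Timp3 (0.66) and Timp1 (0.62) were also higher in shTet2. With CI994 Mmp9 was at -4.57 ± 0.16, Mmp3 at 1.26 ± 0.25, Mmp13 at 0.91 ± 0.22, Timp1 at 0.62 ± 0.16, Mmp19 at 0.57 ± 0.16 and Timp2 at 0.48 ± 0.09.

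The calls of the smaller differences depended on single libraries, while the differences kept their direction. Without CI994, the Mmp10 (0.90 to 0.99) and Timp1 (0.52 to 0.71) calls were lost without any of the 4 libraries compared, and the Timp3 call without shTet2 replicate 2 (0.50), shMbd3 replicate 1 (0.65) or shMbd3 replicate 2 (0.68). With CI994, the Mmp13 (0.78 to 1.03), Timp1 (0.51 to 0.72) and Mmp19 (0.48 to 0.66) calls were lost without any of the 4 compared. Mmp19 was also lost without either shMbd3 library lacking CI994 (0.57 each), Mmp3 without shTet2 with CI994 replicate 1 (1.14), and Timp2 without that library (0.45) or shMbd3 with CI994 replicate 2 (0.45). Without shTet2 with CI994 replicate 1, 1 gene was left, Mmp9.

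Among the 18 further metalloproteinases and direct inhibitors, 7 were tested in the M3 shRNA libraries. The backgrounds for this and the next lists are the shares of all genes passing, 23.2% with shTet2, 32.1% with shMbd3, and 33.5%, 24.2% and 12.6% with CI994 in shControl, shTet2 and shMbd3. With CI994 4 rose in shControl, 3 rose and 1 fell in shTet2, and 4 rose in shMbd3, with list medians of 0.75, 0.72 and 0.93 against 0.03, 0.00 and 0.00 over all genes. Mmp1b, a rodent relative of the interstitial collagenase gene that lies in the chromosome 9 run between Mmp13 and Mmp3 (7367670 to 7388026), measured 2.29 and 1.49 CPM in untreated shControl. Its shTet2 libraries had 10.4 and 11.0 CPM and its shMbd3 libraries 1.46 and 1.56. CI994 groups had 13.6 and 8.15 CPM (shControl), 8.03 and 8.85 (shTet2), and 5.00 and 4.10 (shMbd3). It rose with shTet2 by 2.28 ± 0.26 on the log2 scale (SE; limma, adjusted p = 0.000375), and with CI994 by 2.20 ± 0.26 in shControl (adjusted p = 0.000877) and by 1.31 ± 0.26 in shMbd3 (adjusted p = 0.0139). Its interaction of shTet2 and CI994 was -2.60 ± 0.37 (adjusted p = 0.0227). Mmp1b was at 2.58 with shTet2, 2.50 with CI994 in shControl and -2.89 for the interaction without the library labelled shControl replicate 1. Reck rose with CI994 by 1.72 ± 0.18 in shTet2 and 1.07 ± 0.18 in shMbd3, and Mmp24, a membrane-type metalloproteinase, by 1.81 ± 0.23 in shTet2. Mmp12, a macrophage elastase, was higher in shMbd3 by 0.91 ± 0.28, at 1.84 and 2.95 CPM against 0.732 and 1.25, a call lost without the library labelled shControl replicate 1 (0.70, adjusted p = 0.119).

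Of 16 tested ADAM and ADAMTS proteases, 6 rose and 3 fell with shTet2, and 5 rose and 1 fell with shMbd3. Adamts9 fell by 4.28 ± 0.15 with shTet2 and by 1.00 ± 0.15 with shMbd3, while Adamts5, an aggrecan-cutting enzyme, rose by 3.38 ± 0.19 and 2.19 ± 0.19, and Adam22, which lacks protease activity, by 4.33 ± 0.28 and 1.92 ± 0.28. With CI994 4 rose and 4 fell in shControl, among them Adam8 at 1.91 ± 0.23 and Adam12 at -1.37 ± 0.22. Without the library labelled shControl replicate 1, 7 rose and 5 fell with shTet2, 6 rose and 3 fell with shMbd3, and 6 rose and 4 fell with CI994 in shControl, where 32.8%, 34.3% and 29.7% of all genes passed. Adamts9 was then at -4.23 and -0.95, Adamts5 at 3.65 and 2.45, Adam22 at 4.10 and 1.68, Adam8 at 1.48 and Adam12 at -1.10.

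Of 15 tested activators and partners, 5 rose and 2 fell with shTet2, and 4 rose and 4 fell with shMbd3. The thrombin and urokinase inhibitor Serpine2 fell by 1.61 ± 0.18 and 1.98 ± 0.18, while the urokinase gene Plau rose by 0.99 ± 0.14 with shMbd3. With CI994 10 rose and 3 fell in shControl, 6 rose in shTet2, and 6 rose and 1 fell in shMbd3. Lcn2, whose protein binds Mmp9, rose by 2.56 ± 0.20 in shControl, and the tissue plasminogen activator gene Plat by 2.92 ± 0.16 in shTet2 and 2.50 ± 0.16 in shMbd3. Without the library labelled shControl replicate 1, 7 rose and 2 fell with shTet2, 4 rose and 4 fell with shMbd3, and 9 rose and 1 fell with CI994 in shControl, with Serpine2 at -1.49 and -1.86, Plau at 1.05 and Lcn2 at 2.41.

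All 15 AP-1 and Ets factors were tested. With shTet2 4 rose and 1 fell, and with shMbd3 7 rose and 3 fell. Atf3 rose by 2.51 ± 0.16 and 2.74 ± 0.16, Elf3 by 1.19 ± 0.25 with shTet2, and Junb by 1.75 ± 0.59 with shMbd3, whereas Etv5 fell by 0.94 ± 0.16 with shMbd3. With CI994 5 rose and 3 fell in shControl, 4 rose and 4 fell in shTet2, and 4 rose and 2 fell in shMbd3. Junb rose by 1.99 ± 0.59 in shControl, Fos by 0.98 ± 0.28 in shTet2 and 1.74 ± 0.28 in shMbd3, while Fosb fell by 1.03 ± 0.19 and 1.51 ± 0.19 in those lines and Runx2 by 0.88 ± 0.15 in shControl. The medians of this list were 0.57 with shTet2, 0.56 with shMbd3 and 0.33 with CI994 in shControl, against 0.02, 0.01 and 0.03 over all genes. These medians were 0.25, 0.25 and 0.43 without the library labelled shControl replicate 1, with 5 rising and 3 falling, 5 and 3, and 6 and 5. The Junb calls were then lost, at 0.66 with shMbd3 and 0.89 with CI994 in shControl (adjusted p = 0.14 and 0.0575), and Elf3 with shTet2 was at 0.75. Atf3 was at 2.38 and 2.61, Etv5 with shMbd3 at -1.19 and Runx2 with CI994 at -0.86.

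Over the 6 M3 shRNA groups, group means ranged most for Mmp13 (5.19 on the log2 scale), Mmp9 (4.59), Mmp3 (3.96) and Mmp19 (2.87), and by 1.00 or less for the other 6 genes. For the first 3, the genes with the most similar pattern were found by Pearson's r of log2 CPM over the 12 libraries among 11146 genes, as a description of libraries that share groups and depth. For Mmp13 they were S100a13 (r = 0.985), the caveolar protein gene Cav1 (r = 0.981) and the lipid kinase gene Dgka (r = 0.949). For Mmp9 they were the cofilin phosphatase gene Ssh2 (r = 0.990), Pir (r = 0.988) and the surface glycoprotein gene Gpa33 (r = 0.988). Gpa33 was 41.2 CPM on average in shMbd3 and 66.7 in shMbd3 with CI994, against 0.953 to 2.15 in the other 4 groups. For Mmp3 they were the mitochondrial iron transporter gene Slc25a37 (r = 0.984), Colca2 (r = 0.957) and Abhd5 (r = 0.957). Colca2 was 8.61 CPM on average in shControl and 26.3 with CI994, 2.33 and 3.65 in shTet2, and 0.216 and 0.271 in shMbd3.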

How the data were processed

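Total RNA of 20 libraries was sequenced after preparation with a stranded kit, per the labels' protocols. Alignment with STAR to mm10 is named in the submitters' processing notes. The counting method and the use of strand are not given in the sources used here. The deposited values of 8 libraries were taken as RPKM, since they are not whole and their sums differ (340168 to 382930), and RPKM and FPKM cannot be told apart in them. The deposited values of the other 12 were CPM summing to 1000000. Whole reads were recovered from the CPM, with 100% of values whole within 0.01 reads. In one file 7 further columns equalled other files and were not used, and 0 columns were left unmapped.

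Differences were tested with limma 3.58.1 (R 4.3.3; mean trend, robust) on log2(value / TMM factor + 0.5), with group as the only term and 1 fit per unit. A fold change on this scale understates changes of low genes. Testing was limited to the 11717 genes that reached 1 RPKM, and the 12808 that reached 0.5 CPM, in 2 or more libraries, with Benjamini-Hochberg adjustment to a threshold of 0.05 over all of them. Levels in RPKM and CPM were not compared with each other.

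Named genes were the 10 genes, Tet2 and Mbd3, up to 2 rises and 2 falls per list (adjusted p under 0.05, mean of at least 1), and the 3 most similar genes of the 3 widest-ranging ones. A gene that this rule names is not reported here. The genes and lists were chosen with earlier results of these data known. Alternatives were RLE scaling, library size only, no filter, pseudocounts of 0.1 and 1, the replicate block, removal of the GC trend (GC known for 94.4% and 95.6% of tested genes), only the groups compared, leaving out each library, and edgeR 4.0.16 and DESeq2 1.42.0 on the recovered reads. The test was checked on simulated data.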

Additional observations from a re-analysis of the deposited data

Results flagged for a closer look

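The interaction of shTet2 and CI994 passed for Mmp13, at -2.08 ± 0.31 (log2, SE; limma, adjusted p = 0.0227), a difference between the shTet2 effect without and with CI994. That call was lost in most fits with 1 library left out, with no filter (adjusted p = 0.102) and with only the groups compared (adjusted p = 0.127). CI994 moved Mmp3 in opposite directions in the 2 knockdowns, by -0.32 in shTet2 and 0.73 in shMbd3, with every treated library below the untreated ones in the first and above them in the second. Mmp9 likewise moved by -0.62 in shTet2 and 0.33 in shMbd3. For Mmp3 and Mmp9 the difference between the knockdowns was not tested, and only the Mmp9 fall in shTet2 passed on its own. That Mmp9 call was lost when any of the 4 libraries compared was left out. With only the groups compared, the Mmp3 fall in shTet2 (adjusted p = 0.0189) and its rise in shMbd3 (adjusted p = 0.00396) passed. The rise also passed with the GC trend removed (0.87, adjusted p = 0.00477) and in DESeq2 (0.77, adjusted p = 0.0333).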

How the results depend on the processing

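Of 173 values of these genes over 18 comparisons, 88 passed. None of those 88 reversed in 1752 alternative values, 133 of which no longer passed, and 53 passed under every alternative run. Both the 88 and the 53 include the Mmp9 calls against Py2T LT, which the filter fixed in advance and which say nothing about stability. No filter lost 23 of the 88, only the groups compared lost 14 of 80, and edgeR lost 0 of 44. With the replicate block 0 of 88 calls were lost and 7 of 85 other values passed. Those 7 were Mmp3 with CI994 in shMbd3 (adjusted p = 0.0402), Mmp10 with CI994 in shControl (0.029) and in shTet2 against shMbd3 within CI994 (0.0178), and Mmp14 with CI994 in shTet2 (0.0443), with shTet2 and shMbd3 within CI994 (0.0176 and 0.00964) and in shTet2 against shMbd3 (0.0255). Replicate numbers were not taken as pairs, because the labels do not tie a number to an experiment and not every correlation of replicate differences was over 0.1. These correlations ran from -0.122 to 0.128 between RPKM groups. Between CPM groups they were 0.223 to 0.523, apart from 0.0954 for shControl and shTet2 with CI994. Same-numbered CPM libraries thus mostly deviated together, which the main fit leaves out. Genes near 3 reads and the unknown RPKM depth limit what can be seen. The cause of the changes below was not tested.

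Numbers of genes passing that moved were as follows. With no filter there were 3 for M2 against M1, 1 for M3 against M1, 3 for M3 against M2, 2 for shTet2, 4 and 3 for shTet2 against shMbd3 without and with CI994, and 0 for the shTet2 interaction. With only the groups compared there were 1 for M3 against M1, 0 for shTet2, 3 for shMbd3, 0 and 4 for CI994 in shControl and shMbd3, and 0 for the shTet2 interaction. With the GC trend removed there were 5 for CI994 in shControl and 2 for the shTet2 interaction, with the replicate block as well 5, 4 for CI994 in shMbd3 and 3 for that interaction, and with DESeq2 3. Leaving out each library gave 3 to 7 for M2 against M1, 1 to 3 for M3 against M1, 2 to 5 for M3 against M2, 2 to 8 for shTet2 and for CI994 in shControl, 2 to 4 for CI994 in shMbd3, 4 to 8 and 1 to 8 for shTet2 against shMbd3 without and with CI994, and 0 to 5 and 0 to 2 for the shTet2 and shMbd3 interactions.

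Values that had not passed changed sign in 77 of 1840 alternatives. With the GC trend removed, with or without the replicate block, Mmp3 was -0.054 in M2 against Py2T LT, Mmp14 0.024 and Timp2 0.076 in M3 against M1, Mmp2 -0.11 and Mmp14 -0.097 with shTet2, and Mmp10 0.21 with shMbd3. With CI994 Mmp2 was then -0.039, Mmp14 -0.51 and Timp2 -0.22 in shControl, Mmp14 -0.10 in shTet2, and the Mmp14 shMbd3 interaction 0.19. Mmp3 in M2 was -0.0086 with RLE scaling, and Timp2 in M3 against M1 was 0.011 with only the groups compared. Mmp2 with shTet2 was -0.035 in edgeR and -0.037 in DESeq2, and Mmp14 with CI994 in shMbd3 was 3e-04 in DESeq2. By library size only, Mmp10 with shMbd3 was 0.045, Timp2 in shTet2 against shMbd3 -0.058 and its shMbd3 interaction -0.014, and with a pseudocount of 1 the Mmp19 shMbd3 interaction was -0.058.

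Over left-out libraries, Mmp3 ranged from -0.28 to 0.28 in M2, Mmp19 from -0.30 to 0.0081 in M1 and from -0.18 to 0.11 in M3. In M3 against M1 the ranges were -0.22 to 0.015 for Mmp14, -0.075 to 0.072 for Timp2 and -0.015 to 0.43 for Timp3, and in M3 against M2 -0.0635 to 0.63 for Mmp10 and -0.28 to 0.47 for Mmp13. With shTet2 they were -0.36 to 0.45 for Mmp2 and -0.25 to 0.078 for Timp3, within CI994 -0.36 to 0.021 for Timp1, and with shMbd3 -0.61 to 0.20 for Mmp2 and -0.22 to 0.20 for Mmp10. With shMbd3 within CI994 they were -0.068 to 0.13 for Mmp2, -0.61 to 0.044 for Mmp10 and -0.22 to 0.048 for Timp3. With CI994 they were -0.19 to 0.62 for Mmp2 and -0.087 to 0.46 for Mmp14 in shControl, -0.095 to 0.15 for Mmp10 in shTet2 and -0.18 to 0.12 for Mmp14 in shMbd3. For shTet2 against shMbd3 they were -0.035 to 0.097 for Timp2, and with CI994 -0.21 to 0.099 for Mmp14. Interactions ranged from -0.31 to 0.50 for Mmp2 and -0.10 to 0.45 for Mmp14 with shTet2, and from -0.17 to 0.64 for Mmp2, -0.62 to 0.057 for Mmp10, -0.49 to 0.058 for Mmp14 and -0.048 to 0.058 for Timp2 with shMbd3.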
